A study of Rattus norvegicus with 6 samples.

Results

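A set of 4 Shc adaptors and 6 regulators of the Ras switch were followed in rat Schwann cells stimulated with soluble Neuregulin1 (NRG1). The 10 genes, chosen by name with earlier results of the NRG1 comparison known, were Shc1, Shc2, Shc3, Shc4, Rasgef1b, Rasgef1c, Rasgrp1, Sos1, Rasa1 and Nf1. Of the 17327 genes in the files, 9 were members, and Rasgef1b was not analysed here because the files analysed have no row for it. Of these, 8 were among the 9740 genes that passed the filter on low counts, and Rasgrp1 did not pass it.

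Shc3 was 4.43-fold and Shc4 2.43-fold higher with NRG1, while Shc1 was 1.02-fold the mock level. Rasgef1c, an exchange factor, was lower in all 3 cultures, with mock levels 6.58 to 12.8 times those with NRG1. It passed the filter on low counts through its mock samples alone, with 2 to 4 reads in the NRG1 samples. The fitted levels of Sos1, Rasa1 and Nf1 lay within 1.19-fold of mock, while in culture 2 alone Nf1 was at 0.571 of mock.

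Schwann cells, the glia that ensheath peripheral axons, were isolated from sciatic nerves of adult Wistar rats and grown as primary cultures. They were expanded in medium holding 10 μM forskolin, which raises cAMP, and a neuregulin as growth factor, then starved for 18 h with 2% serum and forskolin. Treated cells (3 samples) received 10 nM NRG1β1 for 6 h and 3 mock samples received only the buffer of the ligand, so that forskolin and the earlier neuregulin were common to both groups. Each of 3 independent cell preparations, called here cultures 1, 2 and 3 after the sample numbers, gave 1 mock and 1 NRG1 sample.

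NRG1 binds ErbB receptors, which dimerise and become phosphorylated on tyrosines of their tails. Shc proteins dock on such phosphotyrosines, become phosphorylated themselves and recruit Grb2 together with the exchange factor Sos, which loads Ras with GTP. GTPase-activating proteins such as Rasa1 and neurofibromin, the product of Nf1, turn Ras off again, and active Ras feeds the Raf-MEK-ERK cascade. In Schwann cells this cascade is known for its part in proliferation and dedifferentiation, and loss of neurofibromin gives rise to neurofibromas.

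Gene counts ranged from 6821590 to 15475018 per sample, and 3 counts, the floor used here, were between 0.194 and 0.44 CPM, the unit of counts scaled to library size used throughout. Levels were scaled with TMM and are not corrected for transcript length, so they are compared between samples and not between genes. Both samples of culture 1 stood apart on the first principal component (68.0% of the variance). All 7 Schwann cell markers found in the files were detected in every sample, with a summed level of 4820 to 6150 CPM in culture 1 and 12600 to 16100 CPM in cultures 2 and 3. The 8 fibroblast markers summed to 54600 to 59000 CPM in culture 1 and 13900 to 22700 CPM in the other cultures. Col1a1 and Col3a1 made up most of these sums. Col1a1 was at 28200 and 32100 CPM in culture 1 and at 13400 to 21500 CPM in the others. Col3a1 was at 22400 and 23200 CPM in culture 1 and at 170 to 838 CPM in the others. Dcn, Lum and Thy1 had no counts outside culture 1, and Col1a2 had none in any sample but NRG1 2. Markers of macrophages and endothelial cells summed to at most 10.3 and 15.2 CPM, with Ptprc, Adgre1, C1qa, Pecam1, Cdh5 and Emcn at 0 in all samples, and those of neurons to at most 57.2 CPM, nearly all from Tubb3, with Rbfox3 at 0. In such bulk samples, fewer cells of a type and less RNA per cell cannot be told apart.

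The promoter windows of the genes on which the results turn are shown first, namely the pair of adaptors that rose, the exchange factor that fell and the adaptor that followed the culture. Each runs 5′ to 3′ on the strand of the gene, from 250 bases before to 50 after the start site, and was taken from RefSeq on the GRCr8 build. All 10 members had an entry. The counts were made on another build (rn5), so these positions apply to the sequences only. The windows are chr3:133427578-133427877 on the minus strand for Shc4, and chr17:13803730-13804029, chr10:34728323-34728622 and chr2:177138298-177138597 on the plus strand for Shc3, Rasgef1c and Shc1. Capitals mark matches to the motifs named after the sequences.
Shc4: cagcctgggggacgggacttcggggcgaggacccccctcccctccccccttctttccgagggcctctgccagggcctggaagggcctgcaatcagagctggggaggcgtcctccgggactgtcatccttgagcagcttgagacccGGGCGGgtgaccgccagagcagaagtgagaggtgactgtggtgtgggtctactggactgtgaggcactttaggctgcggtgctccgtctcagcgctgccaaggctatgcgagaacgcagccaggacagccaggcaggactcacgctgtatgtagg
Shc3: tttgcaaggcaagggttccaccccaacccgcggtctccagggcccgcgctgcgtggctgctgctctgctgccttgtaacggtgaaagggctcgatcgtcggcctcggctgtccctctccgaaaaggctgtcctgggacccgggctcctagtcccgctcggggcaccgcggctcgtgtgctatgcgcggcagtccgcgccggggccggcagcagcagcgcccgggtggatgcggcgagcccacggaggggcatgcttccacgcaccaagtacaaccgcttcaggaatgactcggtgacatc
Rasgef1c: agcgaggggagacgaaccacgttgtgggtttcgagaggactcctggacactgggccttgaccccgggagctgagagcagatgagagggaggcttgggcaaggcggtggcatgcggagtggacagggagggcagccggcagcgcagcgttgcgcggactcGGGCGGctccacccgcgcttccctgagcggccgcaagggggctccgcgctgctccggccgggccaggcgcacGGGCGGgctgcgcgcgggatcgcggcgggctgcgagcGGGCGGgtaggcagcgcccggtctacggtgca
Shc1: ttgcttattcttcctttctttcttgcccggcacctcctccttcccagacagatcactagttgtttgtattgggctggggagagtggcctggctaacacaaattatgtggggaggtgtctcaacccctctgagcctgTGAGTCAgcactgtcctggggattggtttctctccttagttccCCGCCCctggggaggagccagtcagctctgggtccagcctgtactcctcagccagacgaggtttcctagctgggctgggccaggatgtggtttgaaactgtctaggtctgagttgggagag
In all, 6 motifs were searched on both strands, namely AP-1 (TGANTCA), CRE (TGACGTCA), E-box (CACGTG), ETS (CCGGAAG), GC box (GGGCGG) and the CArG box by its name. In the 33469 promoter windows of the table they were found in 7.33%, 1.83%, 6.42%, 8.75%, 33.1% and 1.64%, respectively. Shc3 held none of them. Shc4 held 1 GC box, Rasgef1c 3 GC boxes, and Shc1 1 GC box and 1 AP-1 match. G and C made up 65.3% of the Shc4 window, 68.3% of Shc3, 73.7% of Rasgef1c and 55.3% of Shc1, against a median of 51.7% over all windows, and the CG dinucleotide occurred 15, 31, 37 and 3 times.

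To see how NRG1 affected these genes, the NRG1 and mock samples were compared in 1 model over all 9740 genes with the culture as a block. A gene was called at an adjusted p of at most 0.01 over all genes, and past the fold threshold if it also changed over 2-fold. Because the members were chosen with this comparison known, their values in it are a description. Shc3 and Shc4 were called higher and Rasgef1c lower, that is 3 of 8 members, where 11.8% of all genes were called. The same 3 were past the fold threshold, which 3.47% of all genes passed, 1.56% as higher and 1.91% as lower, and these shares are read no further. Without culture 1, the one that stood apart, the log2 fold changes were 1.89 (SE 0.29, standard error) for Shc3, 1.21 (SE 0.19) for Shc4 and -3.34 (SE 0.59) for Rasgef1c, again as a description. Rasgef1c was above the filter on low counts in its mock samples alone, so its call and its place among the 3 support nothing. The plot of levels by sample shows each member in each culture.

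**Figure D1:**
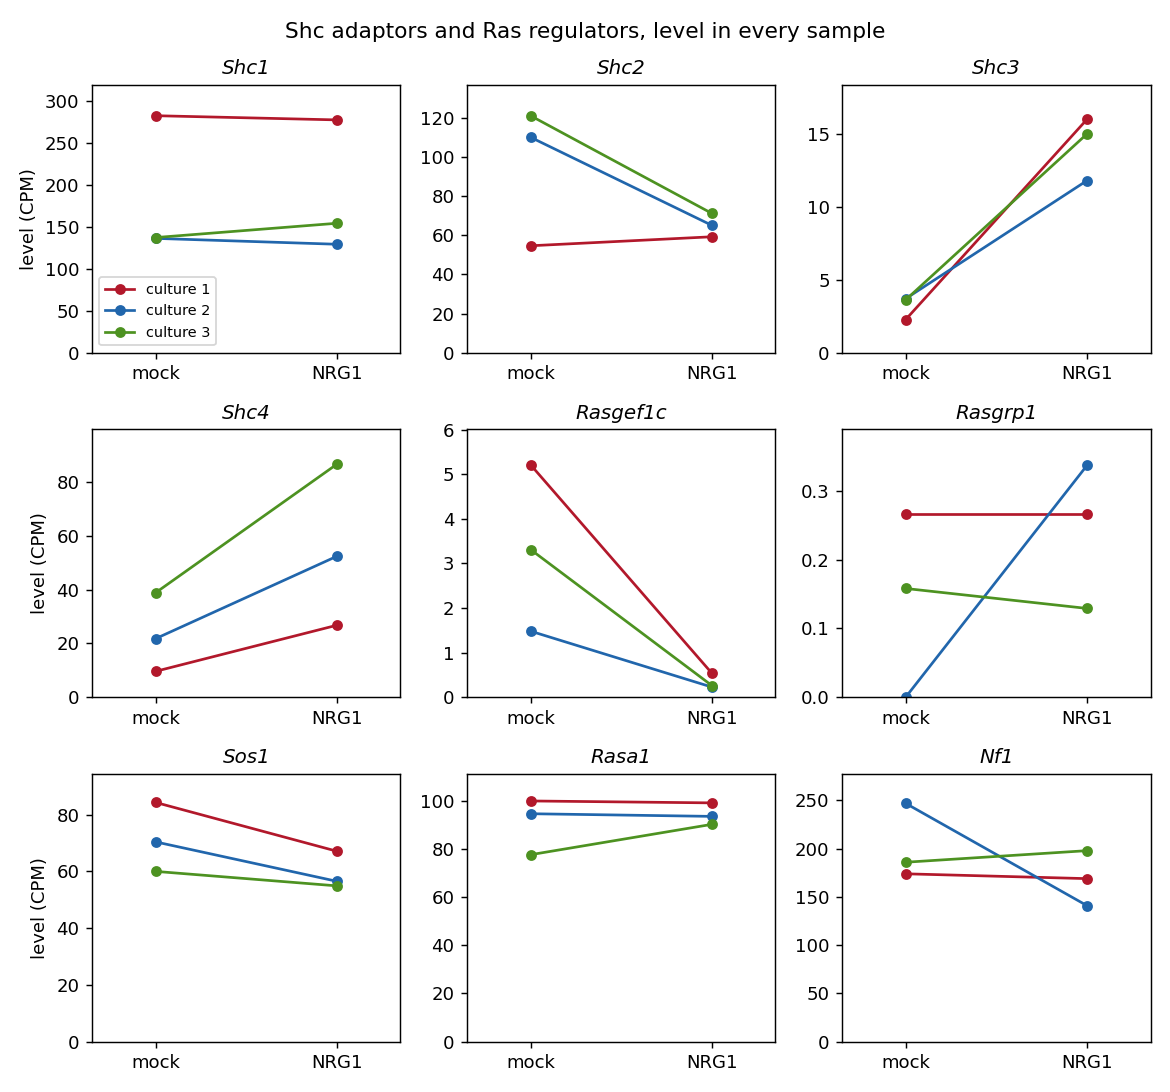
Level of the 9 members with a row in the files, in CPM on a linear axis from 0, for the mock and the NRG1 sample of each culture joined by a line (culture 1 red, 2 blue, 3 green). Shc3 and Shc4 go up and Rasgef1c goes down in all 3 cultures, and Shc2 goes from 110 to 65.0 CPM and from 121 to 71.1 CPM in cultures 2 and 3 only.

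Shc3 encodes an Shc adaptor best known from neurons. It was counted at 2.27, 3.70 and 3.62 CPM in mock samples 1, 2 and 3 and at 16.0, 11.8 and 15.0 CPM in the NRG1 samples. The lowest NRG1 sample was above the highest mock sample, so the groups did not overlap, as for 20.1% of all genes. The group means were 3.20 ± 0.804 CPM for mock and 14.3 ± 2.20 CPM for NRG1 (SD, n = 3 each). The fitted log2 fold change was 2.15 (SE 0.24), and 27 of the 9740 genes had a larger change in either direction. Shc3 was chosen with this comparison known, so that place is a description. Within cultures 1, 2 and 3 the ratio of NRG1 to mock was 7.04, 3.19 and 4.15, with exact 95% intervals for counting error of 4.22 to 12.5, 2.05 to 5.15 and 3.01 to 5.83. The mock samples held only 17, 25 and 46 reads of the gene, and the intervals are correspondingly wide. The rise was thus present in every culture, and its size is less certain than its direction.

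Shc4 encodes the adaptor also called ShcD or RaLP, described in melanoma and in neural tissue. Its level was 9.62, 21.8 and 38.9 CPM in mock samples 1, 2 and 3 and 26.8, 52.5 and 86.8 CPM in the NRG1 samples. The groups overlapped, since NRG1 sample 1 was below mock sample 3, but each NRG1 sample was above the mock sample of its own culture. The ratio within cultures was 2.79 (95% interval 2.12 to 3.70), 2.41 (2.00 to 2.92) and 2.23 (2.01 to 2.48), so the counting intervals of all 3 cultures overlapped. The fitted log2 fold change was 1.28 (SE 0.14). The group means of 23.4 ± 14.7 CPM for mock and 55.4 ± 30.1 CPM for NRG1 (SD, n = 3 each) mostly show the spread between cultures. In the fit without the culture as a block the log2 fold change was 1.24 with a standard error of 0.60. No gene was called in that fit, so the loss of the call is not particular to Shc4. In RefSeq the span of Shc4 overlaps Eid1, whose own counts gave a log2 ratio of -0.08 (edgeR adjusted p = 0.69, SE 0.14).

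Shc1 encodes the adaptor that most tissues use downstream of receptor tyrosine kinases. It was counted at 282, 136 and 137 CPM in mock samples 1, 2 and 3 and at 277, 129 and 154 CPM in the NRG1 samples. High and low samples followed the culture and not the treatment. The log2 fold change was 0.02 (SE 0.12), with a 95% interval of 0.853-fold to 1.21-fold, so a change of the size seen for Shc4 lies outside it. RefSeq lists a pseudogene, Shc1-ps1, and reads that fit both places could have been lost from the counts of Shc1.

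Shc2 encodes another adaptor of the family known from neurons. It was at 54.6, 110 and 121 CPM in mock samples 1, 2 and 3 and at 59.2, 65.0 and 71.1 CPM with NRG1. Mock samples 2 and 3 were the high ones, and the other 4 samples lay close together. The ratio of NRG1 to mock was 0.591 (95% interval 0.529 to 0.660) in culture 2 and 0.589 (0.544 to 0.637) in culture 3, whereas it was 1.08 (0.945 to 1.24) in culture 1. Over all cultures the log2 fold change was -0.49 (SE 0.16) and Shc2 was not called. Without culture 1 it was -0.76 (SE 0.18) and passed the adjusted p of 0.01, so the result depends on that culture, the one with the high fibroblast markers. The part of the cell mixture in this was not tested.

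Set against Shc1 in the same library, which removes the effect of library scaling, the family shifted as follows. There were 0.805, 2.72 and 2.65 reads of Shc3 per 100 reads of Shc1 in mock samples 1, 2 and 3 and 5.78, 9.15 and 9.75 in the NRG1 samples. For Shc4 the figures were 3.41, 16.0 and 28.5 in mock and 9.69, 40.7 and 56.3 with NRG1. For Shc2 they were 19.4, 80.8 and 88.3 in mock and 21.4, 50.4 and 46.1 with NRG1. In cultures 2 and 3 Shc2 and Shc4 therefore moved in opposite directions relative to Shc1, and in culture 1 only Shc3 and Shc4 moved by a large factor. The transcripts differ in length, and Shc1 itself was higher in culture 1. These figures are therefore read from mock to NRG1 within a culture, and not between cultures or between the genes.

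**Figure D2:**
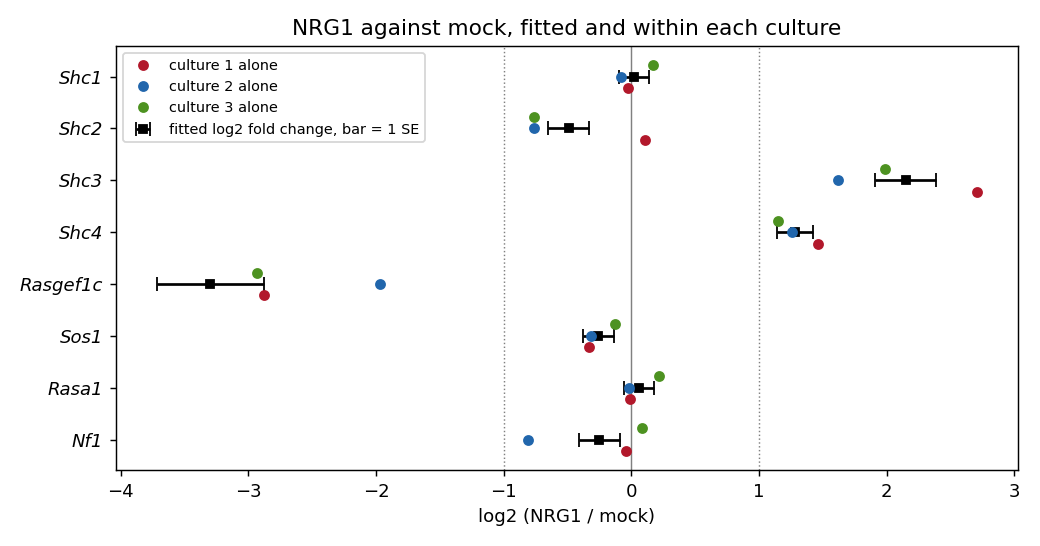
Log2 ratio of NRG1 to mock for the 8 members that passed the filter: the black square is the fitted log2 fold change with a bar of 1 standard error, and the coloured points are the ratios within cultures 1 (red), 2 (blue) and 3 (green), from log2 CPM with 2 reads added as prior. Dotted lines mark a 2-fold change, which the fitted values of Shc3 (2.15), Shc4 (1.28) and Rasgef1c (-3.30) exceed, while Shc2 and Nf1 each have a culture that departs from the others.

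Rasgef1c encodes one of the exchange factors, which load Ras-like proteins with GTP. It belongs to a small family of proteins with a RasGEF domain and is little studied. The files held 39, 10 and 42 reads of it in mock samples 1, 2 and 3 and 4, 2 and 4 reads in the NRG1 samples, or 5.21, 1.48 and 3.31 CPM against 0.533, 0.225 and 0.258 CPM. Every mock sample was above every NRG1 sample. The level in mock was 9.77 times that with NRG1 in culture 1 (95% interval 3.53 to 37.6), 6.58 times in culture 2 (1.40 to 61.8) and 12.8 times in culture 3 (4.65 to 49.2). The fitted log2 fold change was -3.30 (SE 0.42). Rasgef1c reached the filter through its 3 mock samples and none of its NRG1 samples, so it could enter the test only with a difference of this direction, and with so few reads the fold is imprecise. The 2 reads in NRG1 sample 2 are under the floor of 3 counts.

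Sos1 encodes the exchange factor that Grb2 brings to activated receptors and Shc. Its level was 84.3, 70.4 and 60.0 CPM in mock samples 1, 2 and 3 and 67.1, 56.5 and 54.9 CPM with NRG1. Each NRG1 sample was below the mock sample of its culture, by log2 ratios of -0.33, -0.32 and -0.13, while the groups overlapped. The fitted log2 fold change was -0.26 (SE 0.12) and Sos1 was not called. Rasgrp1, an exchange factor activated by diacylglycerol and best known from lymphocytes, had 2, 0 and 2 reads in the mock and 2, 3 and 2 reads in the NRG1 samples. All of these are at or under the floor of 3 counts, and no difference was detectable at this depth.

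The members that turn Ras off were not called, and of them Nf1 was clearly lower with NRG1 in culture 2 alone. Rasa1 encodes p120 RasGAP, which binds phosphotyrosines through SH2 domains and stimulates the GTPase of Ras. Its level was 99.9, 94.6 and 77.6 CPM in mock samples 1, 2 and 3 and 99.1, 93.5 and 90.2 CPM with NRG1. The samples of cultures 1 and 2 were nearly level, and only culture 3 was slightly higher with NRG1. The log2 fold change was 0.06 (SE 0.12), with a 95% interval of 0.879-fold to 1.24-fold.

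Nf1 encodes neurofibromin, the GTPase-activating protein whose gene is mutated in neurofibromatosis type 1. It was at 174, 247 and 186 CPM in mock samples 1, 2 and 3 and at 169, 141 and 198 CPM with NRG1. Culture 2 alone gave a lower level with NRG1, by a ratio of 0.571 (95% interval 0.530 to 0.615), whereas cultures 1 and 3 gave 0.972 and 1.06. The log2 fold change was -0.25 (SE 0.16) over all cultures and 0.03 (SE 0.12) without culture 2, and Nf1 was not called in either fit. In RefSeq the span of Nf1 also holds Omg, Evi2a and Evi2b, and whether the counting kept strands apart is not given in the sources used here.

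Differences between the 3 cell preparations, which the choice of members did not use, were tested in the same fit. At an adjusted p of at most 0.01, 23.4% of all genes differed between cultures, and so did 2 of the 8 members, Shc1 and Shc4, a share near that of all genes. Shc1 was highest in culture 1 (edgeR's quasi-likelihood test, adjusted p = 4.5e-05), with log2 differences of -1.08 for culture 2 and -0.94 for culture 3 from culture 1. Shc4 was lowest in culture 1 (adjusted p = 2.7e-06), by log2 differences of 1.05 for culture 2 and 1.83 for culture 3. Culture 1 was thus the highest for one adaptor and the lowest for the other. When culture 1 was left out, Shc4 still differed between cultures 2 and 3 (adjusted p = 0.0031), with 2.47% of all genes past the threshold, and Shc1 did not pass (adjusted p = 0.88). The p-values measure a difference between preparations against the spread left between their mock and NRG1 samples.

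**Figure D3:**
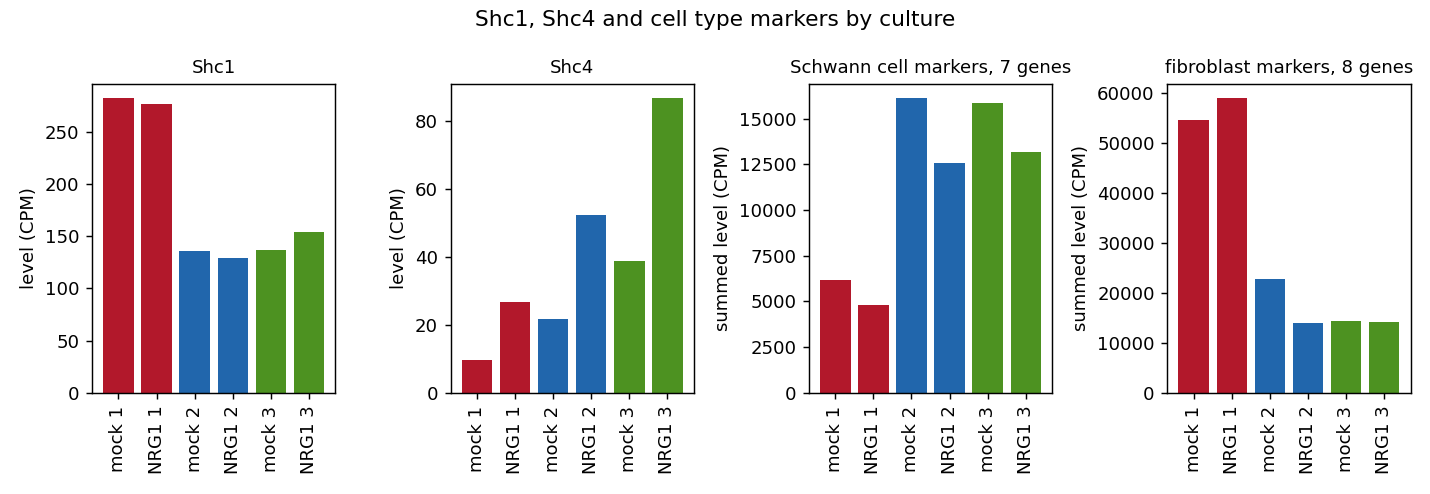
Bars give the level of Shc1 and Shc4 and the summed level of 7 Schwann cell and 8 fibroblast markers, all in CPM on linear axes from 0, in the 6 samples ordered by culture (1 red, 2 blue, 3 green). Shc1 and the fibroblast markers are highest in both samples of culture 1, where Shc4 and the Schwann cell markers are lowest within the mock and within the NRG1 group.

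The marker sums also set culture 1 apart, with the highest fibroblast and the lowest Schwann cell sums, as given above. This match covers culture 1 alone, and single markers did not all follow. Cdh19 was at 193, 223 and 187 CPM in mock samples 1, 2 and 3. The part of the cell mixture in the levels of Shc1 and Shc4 was not tested. Within the treatment comparison, 3 of the 7 Schwann cell markers tested were lower with NRG1, S100b and Cdh19 among them, where 5.51% of all genes were lower, and none was higher. Sox10 and Ngfr had log2 fold changes of 0.11 and 0.08 and did not pass (edgeR adjusted p = 0.58 and 0.74), and none of 4 fibroblast markers tested was called. The other members did not pass the test between cultures. The adjusted p was 0.028 for Shc2, 0.047 for Rasgef1c, 0.11 for Sos1, 0.36 for Rasa1, 0.74 for Nf1 and 0.79 for Shc3. Shc3 had the largest adjusted p of the 8, with fitted log2 differences between cultures of at most 0.23. These are taken over both groups, in which culture 1 lay on opposite sides. Its Shc3 level was the lowest in mock (2.27 against 3.70 and 3.62 CPM) and the highest with NRG1 (16.0 against 11.8 and 15.0 CPM). The mock samples held only 17 to 46 reads, and the part of the cell mixture was not tested.

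Other genes around Ras were taken from 5 lists arranged by role and drawn up with earlier results of these data known. Their p-values in the NRG1 comparison are read with that limit. The lists held 100 genes in all, of which 70 could be tested. Of these, 5 were higher and 2 lower at the same adjusted p in the NRG1 comparison, where 6.31% of all genes were higher and 5.51% lower, and 63 did not pass. The median log2 fold change of the 70 was 0.02, and that of all genes -0.03. None of 9 further exchange factors and none of 5 further GTPase-activating proteins was called, with medians of 0.02 and 0.09. Sos2, the paralogue of Sos1, had a log2 fold change of -0.06 (edgeR adjusted p = 0.77, SE 0.12). The plot of the 5 lists shows most genes close to no change.

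**Figure D4:**
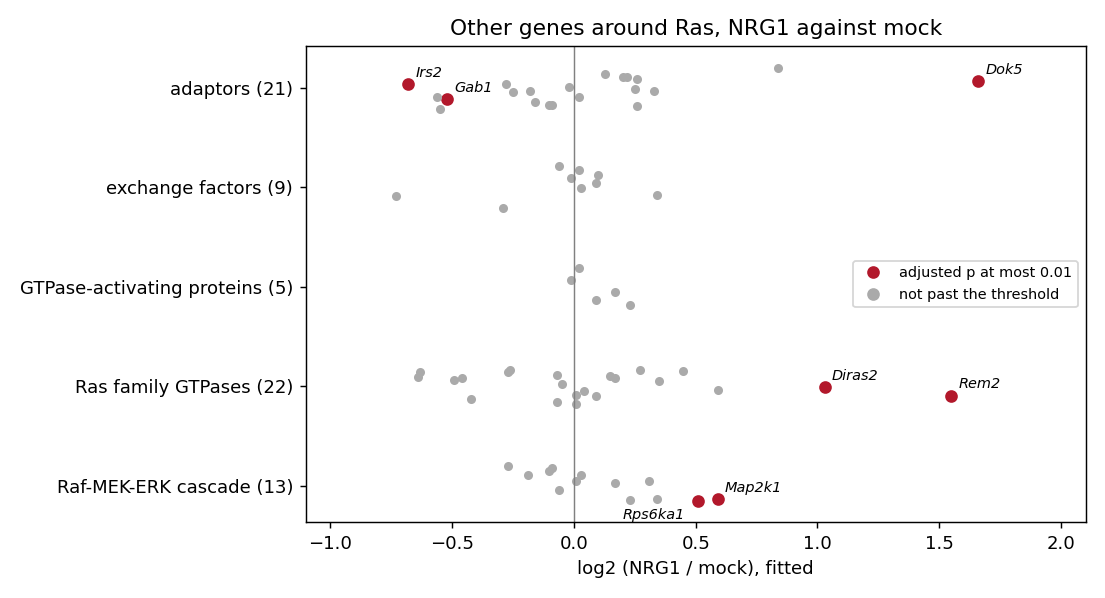
Fitted log2 ratio of NRG1 to mock for the 70 tested genes of 5 lists around Ras, 1 row of points per list with the number tested in brackets, spread vertically only for legibility. The 7 named red points passed an adjusted p of 0.01, and Dok5 (1.66), Rem2 (1.55) and Diras2 (1.03) lie furthest from 0.

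Of 21 adaptors, 1 was higher and 2 were lower. Dok5, a docking protein that binds phosphotyrosines like the Shc family, rose from 4.68, 6.95 and 9.30 CPM in mock samples 1, 2 and 3 to 12.3, 29.1 and 26.5 CPM, a log2 fold change of 1.66 (edgeR adjusted p = 3.6e-05, SE 0.19). The NRG1 samples were all above the mock samples. Irs2, a docking protein of insulin and IGF receptors, fell, with a log2 fold change of -0.68 (adjusted p = 0.0049, SE 0.15). Gab1, which binds Grb2 and recruits further signalling proteins, fell by 0.52 on the log2 scale (adjusted p = 0.0093, SE 0.13). Grb2 itself, the partner of both Shc and Sos, averaged 48.8 ± 3.46 CPM for mock and 58.8 ± 10.6 CPM for NRG1 (SD, n = 3 each) and did not pass (adjusted p = 0.15).

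Of 22 Ras family GTPases, 2 were called higher and none lower, and the median log2 fold change of the 22 was 0.01. The rest lay on both sides of 0 and did not pass. Rem2, a GTPase of the RGK group known to inhibit calcium channels, rose from 6.15, 9.03 and 28.3 CPM to 25.9, 33.5 and 56.7 CPM in cultures 1, 2 and 3 (log2 fold change 1.55, edgeR adjusted p = 8.1e-05, SE 0.19). Diras2, a Ras-like GTPase expressed in brain, had a log2 fold change of 1.03 (adjusted p = 0.0019, SE 0.20). Both were higher with NRG1 in all 3 cultures. Hras and Nras, which encode classical Ras proteins, had log2 fold changes of 0.35 (adjusted p = 0.12, SE 0.15) and 0.15 (adjusted p = 0.38, SE 0.12).

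Of 13 genes of the Raf-MEK-ERK cascade, 2 were higher and none lower. Map2k1, which encodes the kinase MEK1, rose from 223, 185 and 215 CPM to 295, 303 and 339 CPM, a log2 fold change of 0.59 (edgeR adjusted p = 0.0033, SE 0.12), without overlap of the groups. Rps6ka1, which encodes a kinase activated by ERK, had a log2 fold change of 0.51 (adjusted p = 0.0083, SE 0.12). Mapk3, which encodes the kinase ERK1, had a log2 fold change of -0.19 and did not pass (adjusted p = 0.29, SE 0.12). Without 1 of the cultures, Gab1 and Rps6ka1 lost their call whichever culture was left out, Irs2 lost it without culture 2 or 3 and Map2k1 without culture 3.

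The genes whose pattern over the 6 samples was closest to that of Shc4 were looked up by the root mean square difference in log2 CPM, after centring each gene on its own mean. They were Fam181b (0.16), Dusp4 (0.18), Adgre5 (0.18), Itpripl1 (0.19) and Afap1l1 (0.22). Dusp4 encodes a phosphatase of MAP kinases and Adgre5 the adhesion receptor CD97. The likeness includes both the difference of Shc4 between cultures and its rise with NRG1. These genes share both by the way they were chosen, so their values are a description. For Dusp4 the group means were 51.6 ± 28.6 CPM for mock and 110 ± 49.0 CPM for NRG1 (SD, n = 3 each). Shc3, the other adaptor that rose, was at a distance of 0.79 and in position 1261 of the 9739 genes compared, and it was not among the genes called between cultures.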

How the data were processed

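RNA of 3 mock and 3 NRG1 samples of Schwann cells was sequenced after poly(A) selection on an Illumina NextSeq. Reads were mapped by the authors to rn5 with TopHat2 2.0.10, and they deposited htseq counts per RefSeq gene without normalization, and their version of htseq and its strand setting are not given in the sources used here. The 5 summary lines of each file were left out, and 47.0% to 49.9% of alignments per sample were assigned to a gene. Counts were analysed with edgeR 4.0.16 in R 4.3.3, using filterByExpr (minimum count 10), TMM and glmQLFTest with culture and condition as terms, on all genes, with Benjamini-Hochberg adjustment. Standard errors were derived from the fold change and its F statistic. Pairs share a cell preparation according to the study's methods, and deviations of same-numbered samples correlated with r of 0.91, 0.67 and 0.81 over genes, against 0.51 for both crossed pairs of cultures 2 and 3 and -0.80 to -0.71 for those with culture 1. All pairs of libraries differed by more than sampling noise. Intervals within a culture are exact binomial (Clopper-Pearson, 95%) and cover counting error only.

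Members and lists were chosen with earlier results of these data known. Genes named beyond the members were, for each list, at most 4 called genes with the largest change, and the 5 genes closest to Shc4. Sos2, Grb2, Hras, Nras and Mapk3, relatives of members that were not called themselves, were added after their values were seen. Some genes of these lists are not reported here by name. Alternatives were DESeq2 1.42.0, RLE, no filter, no block, each culture left out and an adjusted p of 0.05. Scripts were tested on simulated counts.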

Additional observations from a re-analysis of the deposited data

How the results depend on the processing

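The block decides how many genes are called. With no replicate block, edgeR called 0 genes higher and 0 lower over all genes, 0 of them over 2-fold, 0 in the pathway lists in either direction and 0 members, while 1334 genes had an unadjusted p under 0.05, against 3479 with the pairing. DESeq2 with no replicate block, added after seeing the data, called 114 genes higher and 70 lower, 59 and 42 of them over 2-fold, 2 pathway genes higher and 0 lower, and as members 1 higher (Shc3) and 1 lower (Rasgef1c). At an adjusted p of 0.05 there were 1124 genes higher and 1136 lower, 8 pathway genes lower, 2 members lower (Shc2 joined) and 4 members that differed between cultures. With no low-count filter 857 genes and 7 pathway genes were lower, and 2 members (Shc2 joined). DESeq2 with the block and RLE changed no call of a member or a named pathway gene.

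Leaving out each culture in turn gave 408 to 590 genes higher and 253 to 601 lower, 133 to 202 and 122 to 299 of them over 2-fold, 3 to 5 pathway genes higher and 0 to 3 lower, 2 members higher in each fit, 1 to 2 members lower (Shc2 joined without culture 1) and 1 to 3 members that differed between cultures. The low ends of the pathway counts came without culture 3. The log2 fold change lay between 1.89 and 2.34 for Shc3, 1.21 and 1.38 for Shc4 and -3.45 and -3.02 for Rasgef1c over all fits. When a culture was left out, that of Nf1 ranged from -0.40 to 0.03 (without replicate 2) and that of Shc1 from -0.03 (without replicate 3) to 0.08, so both changed sign near 0. The cause of these shifts was not tested. Rasgef1c and Shc3 rest on few reads, which limits how precisely the size of their changes is known.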
